A study of Mus musculus with 3 samples.

Results

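The clustered protocadherins are cell surface adhesion proteins of the cadherin superfamily, encoded by the alpha, beta and gamma gene clusters that lie next to each other on chromosome 18 of the mouse. The genes were taken from the RNA-seq count table by their symbols, and 24 of the 21782 genes listed were members. They were all 22 genes of the beta cluster (Pcdhb1 to Pcdhb22), 1 of the 14 alpha genes that GENCODE M21 annotates (Pcdhac1) and 1 of the 22 gamma genes (Pcdhgc4). The other alpha and gamma isoforms had no entry under their symbols and were not analysed here. Their levels are not known, and what follows is mainly an account of the beta cluster.

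RNA-seq was carried out in 3 clones of wild-type (WT) MEFs, which are fibroblasts grown from mouse embryos, here E12.5 embryos. The cells were asynchronous and labelled as WT controls, and each clone gave 1 library of polyA-selected RNA. The sources used here name no engineered allele and no treatment for them. There is a single condition, so levels are described for each clone and no conditions were compared. The sources do not say from which embryo or culture each clone came, so the spread between clones may be partly technical.

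In neurons, each cell is known to transcribe a small set of these isoforms, chosen by their promoters, and the combination gives the cell an identity that its neighbours can read through homophilic adhesion. Most of the promoters carry a binding site for CTCF, and CTCF and cohesin are known to bring a chosen promoter together with distal enhancers. Pcdhb1, Pcdhgc4 and a few other isoforms are known to lack this conserved promoter element. Beta genes are single-exon genes whose products have a short cytoplasmic tail of their own, whereas alpha and gamma isoforms join a variable first exon to constant exons shared across the cluster. In bulk RNA, fewer expressing cells and less RNA per cell cannot be told apart.

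The table gives the number of reads counted on each gene. Between 22594316 and 25261357 reads were counted in a clone, and levels are given as counts per 1000000 counts (CPM) after scaling the library sizes with the TMM method of edgeR. A single count corresponded to between 0.0396 and 0.0443 CPM, and a count of 0 still allows a level of 3 counts, between 0.119 and 0.133 CPM. All 10 fibroblast marker genes reached 1 CPM in every clone, with summed levels of 57187, 47764 and 46108 CPM in clones 1, 2 and 3. Of the 10 neuronal markers 3 did so, among them Tubb3, and the list summed to 88.0, 90.5 and 82.3 CPM, while the defining neuronal genes Rbfox3 and Nefl had 0 counts in every clone and Snap25 had 0, 0 and 1. The 10 glial and neural crest markers summed to 3.94, 3.68 and 5.15 CPM, and the defining glial gene Olig2 had 0 counts in every clone. All 9 macrophage markers that the table listed reached it and were unequal, at 346, 1657 and 285 CPM, and so did all 6 proliferation genes, at 368, 723 and 609 CPM. Of the 6 endothelial and the 6 epithelial markers, 1 each reached it, with sums between 10.9 and 22.7 CPM and between 3.42 and 7.09 CPM.

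The 24 members listed, nearly all of them beta genes, were transcribed at a low level in WT MEFs. The level of the whole family cannot be given, since most alpha and gamma genes had no entry. The members summed to 935, 790 and 798 counts in clones 1, 2 and 3, which is 37.6, 35.0 and 31.6 CPM (34.8 ± 3.03 CPM; SD, n = 3 clones). Of the 24 members, 8 reached 1 CPM or more in every clone, compared with 52.2% of all genes of the table. More than 3 counts in every clone were found for 17 members, compared with 59.9% of all genes, and 2 members had 0 counts in every clone, compared with 25.2% of all genes. The median over the members of the mean level was 0.607 CPM, and over all genes it was 2.22 CPM.

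The 8 members at 1 CPM or more in every clone were Pcdhb5, Pcdhb16, Pcdhb17, Pcdhb18, Pcdhb19, Pcdhb20, Pcdhb22 and Pcdhgc4. Of these, only Pcdhb17 and Pcdhb22 reached 5 CPM in every clone. Pcdhb14 was above 1 CPM in clones 2 and 3 but not in clone 1. The plot of read counts by clone shows all members in their order along the chromosome.

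**Figure D1:**
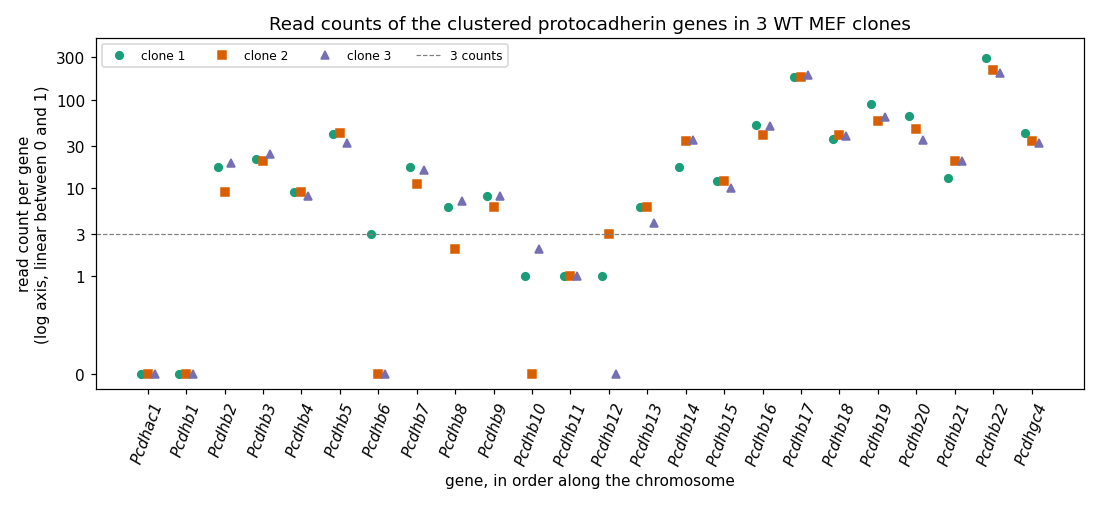
Read counts of the 24 clustered protocadherin genes (x axis, in order along the chromosome) in clones 1, 2 and 3 (y axis, log scale that is linear between 0 and 1), with a dashed line at 3 counts. Pcdhb22 has the highest count in each clone, at 297, 219 and 200, and Pcdhac1 and Pcdhb1 are at 0 in all 3.

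The C-type isoforms, which are known to be used apart from the other members of the alpha and gamma clusters, are represented by 1 gene of each cluster. Pcdhac1 (GRCm38, chromosome 18, 37090013 to 37187657, plus strand) had 0 counts in every clone. Pcdhgc4 (37815079 to 37841873, plus strand), an isoform known for its part in the survival of interneurons, was counted 42, 34 and 32 times, at a level of 1.49 ± 0.212 CPM (SD, n = 3). The 3 clones did not differ for Pcdhgc4 by more than the test of counting error allowed (adjusted p = 0.529, chi-square test across all genes). Pcdhgc4 took 4.27% ± 0.243 (SD, n = 3) of the counts of all members and the beta genes 95.7% ± 0.243.

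Both C-type genes share exons with their neighbours. Of the annotated exon length of Pcdhac1, 52.8% belongs also to another gene, and for Pcdhgc4 this is 37.9%. Their longest coding transcripts have 4 exons each, all of them with coding sequence. How the authors' counting treated reads in exons that several genes share is not given in the sources used here, so the count of Pcdhgc4 may hold reads of other gamma isoforms or may lack its own constant exons. Divided by the 3477 bp of exon that no other gene shares, the level of Pcdhgc4 was 0.428 ± 0.0611 CPM per kb (SD, n = 3).

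The beta cluster extends on GRCm38 from 37264938, the start of Pcdhb1, to 37524479, the end of Pcdhb22, and all 22 genes lie on the plus strand, numbered in their order along the chromosome. In each gene, the transcript with the longest coding sequence has 1 exon, which holds the whole coding sequence. Coding sequences are alike in length, from 2316 nt in Pcdhb6 to 2487 nt in Pcdhb7, while annotated 3' UTRs range from 74 nt in Pcdhb1 to 6120 nt in Pcdhb14. Neighbouring beta genes lie close together at the 3' end of the cluster, where 10 bp separate Pcdhb17 from Pcdhb18 and 135 bp separate Pcdhb19 from Pcdhb20. The annotated exons of Pcdhb21 and Pcdhb22 overlap by 455 bp on the same strand. A transcript of another gene overlaps 1927 bp of Pcdhb12. These overlaps make the 3 genes less certain.

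The counts of the beta cluster came mostly from its 3' part. Its counts were 893, 756 and 766 in clones 1, 2 and 3, a level of 33.3 ± 2.82 CPM (SD, n = 3). Its first 11 genes, Pcdhb1 to Pcdhb11, took 13.9% of these counts in clone 1 (95% Wilson interval 11.8 to 16.3), 13.2% in clone 2 (10.997 to 15.8) and 15.3% in clone 3 (12.9 to 17.99). The last 11 genes, Pcdhb12 to Pcdhb22, took the other 85.9% ± 1.04 (SD, n = 3). The intervals overlap between the clones, and they cover counting error only, since reads without molecular identifiers are not independent molecules. Since the genes differ in annotated length, the same share was also computed from CPM per kb of exon that no other gene shares, and the last 11 genes then took 80.01% ± 1.76 (SD, n = 3).

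**Figure D2:**
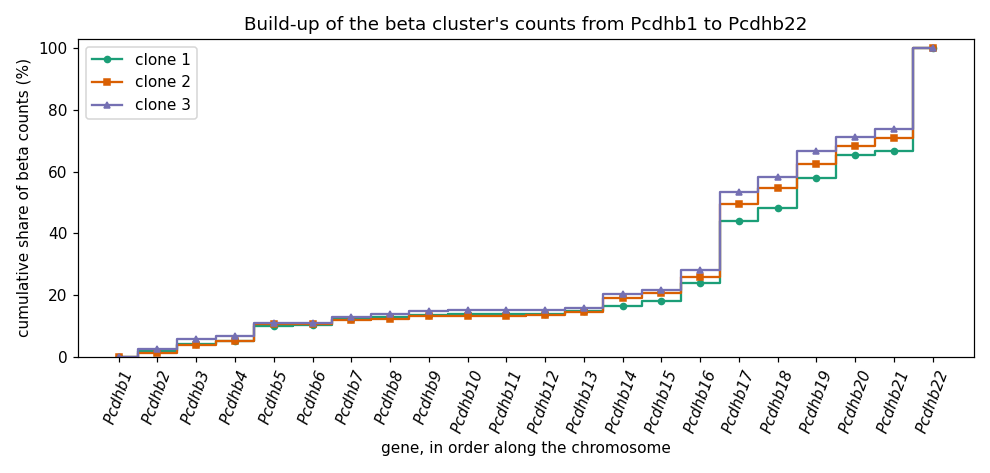
Cumulative share of the beta cluster's counts (y axis, percent) from Pcdhb1 to Pcdhb22 (x axis, gene order along the chromosome), 1 line per clone. In all 3 clones the lines stay under 30% up to Pcdhb16 and make their largest steps at Pcdhb17 and Pcdhb22.

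Within the 3' part, Pcdhb17 and Pcdhb22 stood above the rest. Pcdhb22 (37517871 to 37524479), the last gene of the cluster, had 297, 219 and 200 counts from clone 1 to clone 3, a level of 9.86 ± 2.02 CPM (SD, n = 3), and 61.3% of all genes of the table had the same mean level or a lower one. Pcdhb17 (37484795 to 37489454) was counted 181, 179 and 192 times, which is 7.61 ± 0.327 CPM. In clone 1 the counts of the pair were far apart, and in clone 3 they were within counting error of each other, with 26.1% of the beta counts for Pcdhb22 (23.1 to 29.3) and 25.1% for Pcdhb17 (22.1 to 28.3). Together these genes took 53.5%, 52.6% and 51.2% of the beta counts.

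The other genes of this part that reached 1 CPM in every clone were Pcdhb19, Pcdhb20, Pcdhb16 and Pcdhb18. Pcdhb19 (37496991 to 37504128) had 89, 57 and 64 counts, or 2.88 ± 0.607 CPM. Pcdhb20 (37504264 to 37507822) had 65, 46 and 35 counts, or 2.01 ± 0.616 CPM. Pcdhb16 (37477814 to 37483038) had 52, 40 and 50 counts, or 1.95 ± 0.162 CPM, and Pcdhb18, which lies between Pcdhb17 and Pcdhb19, had 36, 40 and 39 counts, or 1.59 ± 0.167 CPM. All of these genes were under Pcdhb17 and Pcdhb22 in every clone. The 7 genes from Pcdhb16 to Pcdhb22, a stretch chosen after its values were seen, took 79.97% ± 1.92 (SD, n = 3) of the beta counts and include Pcdhb21, the lowest of them, with 13, 20 and 20 counts.

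Among the genes from the start of the cluster to Pcdhb15, Pcdhb5 was the highest in mean CPM, at the level of Pcdhb18, and Pcdhb14 and Pcdhb3 were above Pcdhb21. Pcdhb1, the first gene of the cluster (37264938 to 37267525), had 0 counts in every clone, which allows a share of up to 0.336%, 0.397% and 0.392% of the beta counts. Pcdhb2 had 17, 9 and 19 counts and Pcdhb3 had 21, 20 and 24. Pcdhb5 (37320381 to 37323915), singled out after its values were seen, had 41, 42 and 32 counts, or 1.59 ± 0.302 CPM. Around the middle of the cluster, Pcdhb10, Pcdhb11 and Pcdhb12, as well as Pcdhb6, did not exceed 3 counts in any clone, so that their presence was not detectable at this depth beyond the limit of a count of 0. Pcdhb8 had more than 3 counts in clones 1 and 3, with 6, 2 and 7 counts, and the remaining genes of this stretch, Pcdhb4, Pcdhb7, Pcdhb9, Pcdhb13, Pcdhb14 and Pcdhb15, had between 4 and 35 counts in a clone.

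To compare levels between genes, CPM were divided by the length of annotated exon that no other gene shares. On this scale Pcdhb17 was at 1.63 ± 0.0701 CPM per kb and Pcdhb22 at 1.60 ± 0.329 CPM per kb (SD, n = 3), and their values overlapped between clones. Pcdhb20 followed at 0.566 ± 0.173 CPM per kb, below both in every clone. Then came Pcdhb5 at 0.451 ± 0.0854, Pcdhb19 at 0.404 ± 0.0850, Pcdhb16 at 0.373 ± 0.0310 and Pcdhb18 at 0.315 ± 0.0331 CPM per kb, each of which overlapped the next. Pcdhb3 at 0.236 ± 0.0140 CPM per kb was again below Pcdhb18 in every clone. Over the whole order of 22 genes, 17 of the 21 pairs of neighbours overlapped between clones and 4 did not. The pairs that did not overlap were Pcdhb22 and Pcdhb20, Pcdhb18 and Pcdhb3, Pcdhb4 and Pcdhb13, and Pcdhb11 and Pcdhb1, the last of which sets 1 count in each clone against 0 and lies under the limit that a count of 0 allows.

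**Figure D3:**
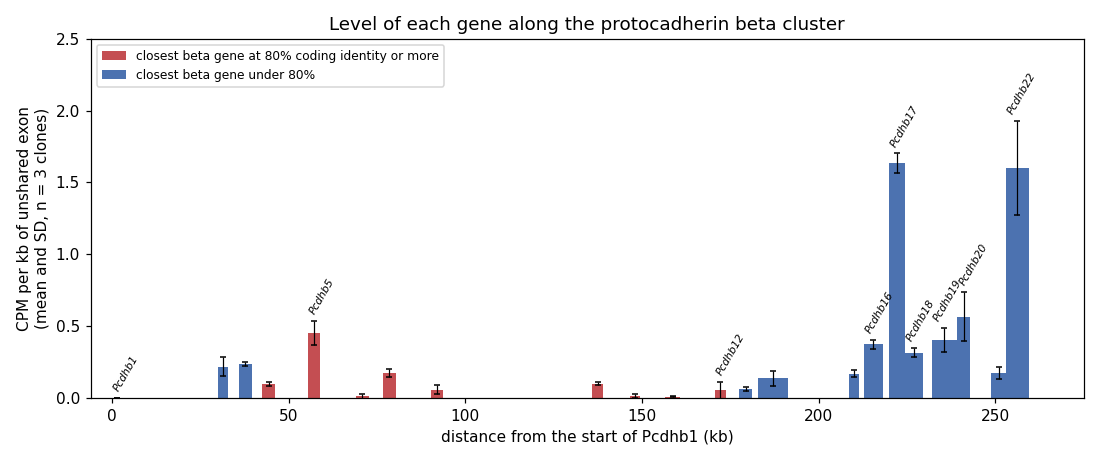
Level of each beta gene (y axis, CPM per kb of unshared exon, bars are the mean and error bars the SD of 3 clones) at its distance from the start of Pcdhb1 (x axis, kb, bar width to scale), with colour for the coding identity to the closest beta gene. The 2 tallest bars, Pcdhb17 at 1.63 and Pcdhb22 at 1.60, lie over 200 kb from Pcdhb1, and the 9 genes with a close paralog lie next to each other, with Pcdhb5 at 0.451 as the highest of them.

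The place of Pcdhb22 beside Pcdhb17 depended on the gene length. GENCODE M21 gives Pcdhb22 an exon of 6609 bp and Pcdhb17 one of 4660 bp, while RefSeq gives 3067 bp and 3270 bp, and the annotation that the authors used is not given in the sources used here. Per kb of the RefSeq exon, Pcdhb22 was at 3.90, 3.17 and 2.58 CPM per kb in clones 1, 2 and 3 and Pcdhb17 at 2.23, 2.43 and 2.32, so that Pcdhb22 was higher in every clone. Pcdhb14, whose exon is 8695 bp in GENCODE and 3438 bp in RefSeq, moved from 0.137 ± 0.0511 to 0.347 ± 0.129 CPM per kb. Both genes remained the top pair per kb of RefSeq exon and per kb of coding sequence, where Pcdhb22 had a mean of 4.14 and Pcdhb17 one of 3.17 CPM per kb. The last 11 genes took 85.5% ± 1.40 of the summed CPM per kb with RefSeq lengths and 85.9% ± 1.04 with coding lengths (SD, n = 3).

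**Figure D4:**
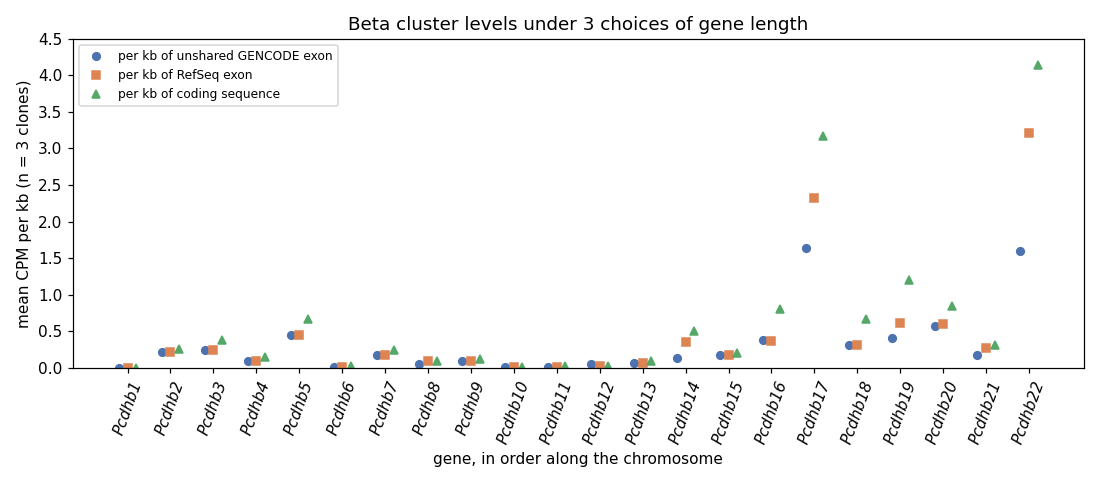
Mean level of each beta gene over 3 clones (y axis, CPM per kb) with 3 choices of length, in order along the chromosome (x axis). Pcdhb17 and Pcdhb22 are the highest with each choice, but their order changes, at 1.63 against 1.60 per kb of unshared GENCODE exon and 2.33 against 3.22 per kb of RefSeq exon.

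Across the 22 beta genes, which share libraries and sequence and are not independent, the rank correlation of the level per kb with the order along the chromosome was 0.510 (Spearman's rho, given as a description). Within clones it was 0.481, 0.586 and 0.501 in clones 1, 2 and 3. The order was not monotonic, since Pcdhb2, Pcdhb3 and Pcdhb5 at the 5' end were above the genes from Pcdhb8 to Pcdhb13. Without Pcdhb1 the rank correlation was 0.436. With the GC content of the coding sequence it was -0.0661, and with the length of the 3' UTR 0.438, both over the same 22 genes. Per kb of RefSeq exon, the rank correlation was 0.567 with the length of the 3' UTR and 0.592 with the order. Per kb of coding sequence, these values were 0.608 and 0.580. The RefSeq and coding lengths were chosen after seeing the data.

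Many of the low genes in the middle of the cluster also resemble each other most in sequence. Coding sequences of 2 beta genes were identical at a median of 74.0% of aligned positions over 231 pairs, with a range from 56.9% to 89.8%. For the 9 genes from Pcdhb4 to Pcdhb12, the closest other beta gene was identical at 85.7% to 89.8% of positions, and for the other 13 genes at 59.7% to 77.1%. Pcdhb1 was the most distant, at 59.7% to its closest relative Pcdhb8. The 9 genes had a median level of 0.0581 CPM per kb, with a range from 0.00937 to 0.451, and took 9.73% ± 0.0647 of the beta counts (SD, n = 3). The other 13 genes had a median of 0.236 CPM per kb, with a range from 0 to 1.63.

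Reads from such genes can fit more than 1 of them. The alignment allowed 2 mismatches and up to 5 positions per read, and the sources used here do not say whether a read with several positions was counted. Of the 86-nt stretches of the annotated transcripts, the read length of the study, between 5.09% and 63.9% were also found in transcripts of other genes at up to 2 mismatches among the 9 similar genes (median 13.2%). Among the other 13 genes the share was between 0% and 10.2% (median 3.09%). The highest share was that of Pcdhb12, which had 1, 3 and 0 counts. Of its exon length, 63.5% is overlapped by the transcript Gm37446, which is the same locus and not a similar gene elsewhere. The next highest of the 9 was Pcdhb7 at 17.3%. The overlap of Pcdhb21 and Pcdhb22 also enters their shares. Over the 22 beta genes, the rank correlation of the level per kb with this share was -0.127. Divided by the number of stretches that matched no other gene, the median level of the 9 genes was 0.0728 CPM per 1000 stretches and that of the other 13 was 0.245. The part of shared sequence in the low counts was not tested.

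The set of beta genes in use was alike in the 3 clones. Beta genes with more than 3 counts numbered 17, 16 and 17 in clones 1, 2 and 3. For pairs of clones, the correlation of log2(CPM + 1) across the 22 genes lay between 0.974 and 0.986 (Pearson's r), and the genes are not independent replicates. The effective number of isoforms, which is the exponential of the Shannon entropy of the isoform shares and would be 22 if all genes had the same count, was 8.83, 9.25 and 9.70 in the clones (9.26 ± 0.433; SD, n = 3). Computed from counts per kb of unshared exon it was 10.7. These values describe whole cultures and do not tell how many isoforms a cell transcribed.

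Differences between clones were tested for every gene with at least 30 counts summed over the clones, by a chi-square test that set the counts against those the scaled library sizes would give. The test sets 3 libraries against counting error and does not compare conditions. Of the 14 members that could be tested, 13 of them beta genes, 3 differed between clones after Benjamini-Hochberg adjustment (0.05), whereas 62.2% of the 12608 genes tested and 43.4% of the 4052 of these whose mean level lay in the range of the members tested did so. Pcdhb22 was the clearest, highest in clone 1 and lower in clones 2 and 3 (11.95, 9.71 and 7.92 CPM; adjusted p = 8.58e-05). Pcdhb20 had 2.62, 2.04 and 1.39 CPM in clones 1, 2 and 3, a ratio of 1.89 between the highest and the lowest clone (adjusted p = 0.0162). Pcdhb14 went the other way, with 0.684, 1.51 and 1.39 CPM, a ratio of 2.20 (adjusted p = 0.0297). Pcdhb17, in contrast, had a ratio of 1.09 (adjusted p = 0.758), and Pcdhb19 had a ratio of 1.42 (adjusted p = 0.0680).

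Of the members tested, 1 (Pcdhb14) was called and also differed at least 2-fold between clones, and 9.26% of all genes tested did so. Without clone 1, none of the 14 members was called by the chi-square test, 1 had an unadjusted p under 0.05, and 32.1% of all genes tested were called. Without clone 2 the same 3 genes were called, and without clone 3 Pcdhb14 and Pcdhb22 were. Clone 1 is also the clone in which the proliferation genes were lowest, at 368 CPM against 723 and 609 CPM, and their part in these differences was not tested. The macrophage genes were highest in clone 2, where Pcdhb22 and Pcdhb20 lay between the other two clones and Pcdhb14 was highest.

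The genes on both sides of the clusters and between them ranged from levels like those of the beta genes to much higher ones. Of 26 genes of this part of chromosome 18 on the list of neighbours, 24 were in the table. Of these, 20 reached 1 CPM in every clone, compared with 52.2% of all genes. Upstream of the alpha cluster, Zmat2 was at 12.8 ± 0.750 CPM per kb of exon (SD, n = 3). For genes other than the members, here and below, all annotated exon was used, shared or not. Between the beta and gamma clusters lie Slc25a2, the gene of a mitochondrial carrier, with 2, 0 and 2 counts, and Taf7, a subunit of the general transcription factor TFIID, with 109, 97 and 89 counts or 1.23 ± 0.144 CPM per kb. Downstream of the gamma cluster, the histone deacetylase gene Hdac3 was at 15.6 ± 0.578 CPM per kb. The median of the mean level was 16.2 CPM over the listed neighbours and 0.607 CPM over the beta genes. Some neighbours on both sides lay within the range of the beta genes. Examples were Dnd1 at 0.254 and Cystm1 at 0.432 CPM per kb upstream, and Arap3 at 0.896 and Rell2 at 0.0804 CPM per kb downstream. Taf7 was the listed neighbour nearest to the 3' end of the beta cluster that reached 1 CPM in every clone, and its mean level of 1.23 CPM per kb was below the means of Pcdhb17 and Pcdhb22, at 1.63 and 1.60, whereas Zmat2 and Hdac3 were above all beta genes in every clone.

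Some of the protocadherins outside the clusters, which are encoded by separate genes, reached higher levels than the beta genes. Of 12 genes outside the clusters, 8 were at 1 CPM or more in every clone, compared with 52.2% of all genes. Pcdh18 had 2256, 2608 and 2810 counts, or 19.7 ± 2.47 CPM per kb of exon (SD, n = 3), Pcdh19 was at 12.7 ± 1.45 and Pcdh7 at 10.03 ± 1.24 CPM per kb. All 3 were above Pcdhb17 and Pcdhb22 in every clone. The others at 1 CPM or more included Pcdh9 at 4.16 ± 0.992 and Pcdh1 at 2.37 ± 0.418 CPM per kb. Pcdh20 was at 0.470 ± 0.178 CPM per kb, in the range of Pcdhb5 and Pcdhb20. Pcdh10 at 0.304 ± 0.194 and Pcdh11x at 0.257 ± 0.0252 CPM per kb had lower means than Pcdhb18. Pcdh8 had 0 counts in every clone, and Pcdh12, Pcdh15 and Pcdh17 had between 0 and 14 counts in a clone. Of the 8 genes outside the clusters that could be tested, 7 were called as differing between clones. The share over all genes tested, which is not matched for level, was 62.2%.

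**Figure D5:**
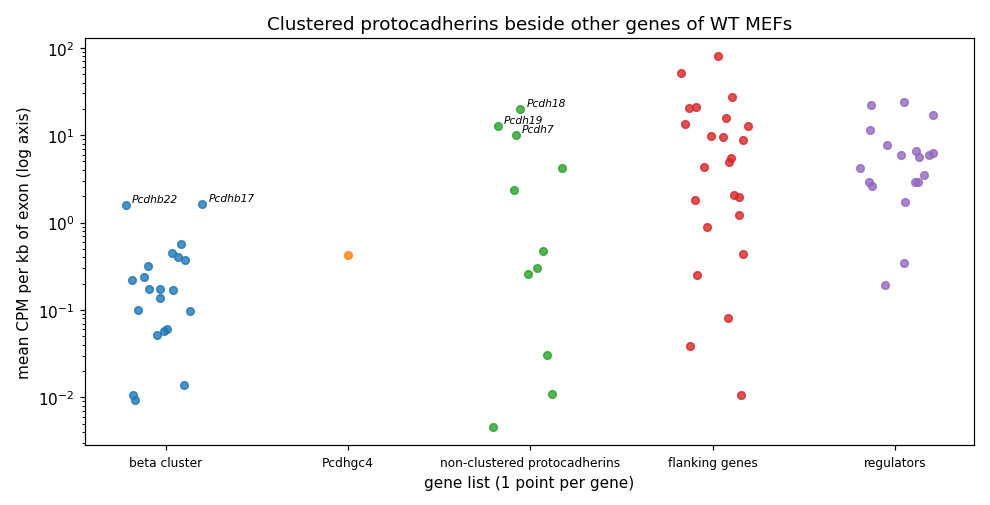
Mean level of each gene over 3 clones (y axis, CPM per kb of exon, log axis). The beta cluster and Pcdhgc4 are per kb of unshared exon. The non-clustered protocadherins, the neighbouring genes on chromosome 18 and the regulators are per kb of all annotated exon. Pcdhb17 and Pcdhb22 are the highest beta points, at 1.63 and 1.60, under Pcdh18 at 19.7, and genes with 0 counts (Pcdhb1 and Pcdh8) or without a matched exon length (Wapal) are not drawn.

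Genes on a list of regulators were transcribed in all clones. The list holds genes known to act on the promoters or the loops of the clusters, further cohesin cofactors, and a paralog of Ctcf. An action of each listed gene on the clusters was not examined here. Of the 20 genes listed, 19 reached 1 CPM in every clone, compared with 52.2% of all genes. They include Ctcf at 7.67 ± 1.29 CPM per kb of exon, the cohesin genes Rad21 at 24.2 ± 4.64 and Smc1a at 22.2 ± 2.79, and the loader gene Nipbl at 5.96 ± 0.722 CPM per kb (SD, n = 3). Of the genes known to keep the clusters silent, Smchd1 had 1152, 1527 and 1496 counts (2.89 ± 0.538 CPM per kb), Setdb1 had 957, 1027 and 1140 counts (6.28 ± 0.575 CPM per kb), and Dnmt3b, a DNA methyltransferase known to methylate their promoters, had 40, 34 and 54 counts (0.343 ± 0.0662 CPM per kb). Dnmt3b was the lowest of the 19 in CPM, and Ctcfl, the germline paralog of Ctcf, was the gene that stayed below 1 CPM, with 16, 15 and 14 counts. By the chi-square test, 18 of the 20 genes listed were called as differing between clones. The share over all genes tested, which is not matched for level, was 62.2%. The list summed to 922, 1163 and 1153 CPM in clones 1, 2 and 3. No library with altered CTCF or cohesin was part of this experiment, so the relation of these regulators to the beta genes was not tested.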

How the data were processed

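RNA-seq of 3 WT MEF clones (1 library each) was analysed from the counts per gene that the authors deposited. Single-end reads of 86 nt had been aligned by the authors with up to 2 mismatches and 5 positions per read, using TopHat 2.0.0 on Bowtie 0.12.7 with Samtools (0.1.16), and then assigned to genes by HTSeq. The methods name mm10 and the submitters' processing notes mm9. The annotation, strand setting and overlap mode are not given in the sources used here. Total counts were 25261357, 22594316 and 24791198 in clones 1, 2 and 3. CPM used TMM library sizes (edgeR 4.0.16, R 4.3.3). DESeq2 1.42.0 size factors were an alternative. Clones were compared by Pearson's chi-square test (2 degrees of freedom) over all genes with at least 30 summed counts (20 where a clone was left out), adjusted by Benjamini-Hochberg. The test was tried on counts simulated for 12608 genes with counting error only (Poisson), 200 of them changed 2-fold in a clone. It called 94.0% of these and 10 unchanged genes. The 200 were drawn at random over all levels, so the rate for genes with few counts is not given. Gene positions and exons came from GENCODE M21 on GRCm38 and alternative lengths from RefSeq (GRCm38.p6). All 24 symbols matched both. Coding sequences were aligned globally with Biopython 1.88, over aligned positions without gaps.

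The members, as a gene family taken by symbol, and the lists were chosen with earlier results of these data known. Genes named were the 5 highest members per cluster by mean CPM, the C-type members, the first and last gene of each cluster, members at 0 in all clones, the 5 members with the largest ratio between clones among those called, and genes of the fixed lists. The other members are named to account for all 24 members. Pcdhb5 and Pcdhb12, single marker genes and list genes under 1 CPM were singled out after their values were seen. Sequences of these genes are not printed here, and some genes of the lists are not reported here by name.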

Additional observations from a re-analysis of the deposited data

How the results depend on the processing

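No paired analysis was possible because the 3 libraries are of 1 group and no groups were compared. Of 53 values computed under alternatives, 38 kept within the spread of the clones (or 1.5 times a count) and 15 did not. None changed sign, which only the rank correlation could do. Mean shares and effective numbers with a clone left out stay within that spread by arithmetic, and the alpha share was 0 in every setting. These values among the 38 are therefore no sign of robustness. The number of members expressed was 17 with more than 3 counts in every clone and 2 at 5 CPM, in place of 8, and 8 to 9 when a clone was left out. The number of members differing between clones was between 0 and 3 when a clone was left out, and 1 with a 2-fold minimum. Per kb of unshared exon, the beta share of member counts was 94.1% and the gamma share 5.87%, which here is Pcdhgc4 alone. The effective number of beta isoforms was 10.7 per kb of unshared exon and 8.003 over members with 30 or more counts. Chosen after seeing the data, it was 8.71 per kb of RefSeq exon and 10.9 per 1000 unshared stretches. The rank correlation of beta level with position was 0.586 for counts not divided by length and, also chosen after seeing the data, 0.592 per kb of RefSeq exon, 0.580 per kb of coding sequence, 0.659 without the 9 similar genes and 0.436 without Pcdhb1. With 1 alpha and 1 gamma gene, the planned share of C-type isoforms, evenness and position within those clusters could not be computed. Depth limits all genes under 3 counts, and 10 of the 24 members were too low to be tested between clones.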

Other observations

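Genes of proteins known to bind, cleave or signal from protocadherins were also looked at. Of 15 such genes, 14 reached 1 CPM in every clone, compared with 52.2% of all genes. Adam10, the protease known to shed protocadherin ectodomains, had 3811, 4508 and 4684 counts in clones 1, 2 and 3, or 36.6 ± 4.85 CPM per kb of exon (SD, n = 3). Ncstn, the gene of a gamma-secretase subunit, was at 95.6 ± 6.38 CPM per kb. The kinase genes that clustered protocadherins are known to restrain, Ptk2 and Ptk2b, were at 9.16 ± 0.125 and 5.49 ± 1.19 CPM per kb. By the chi-square test, 12 of the 15 genes were called as differing between clones, compared with 62.2% of all genes tested. Ptk2b, with 1092, 1067 and 773 counts, was among those called and Ptk2 was not. Genes of the WAVE complex, which regulates actin, were all at 1 CPM or more, with Nckap1 at 36.8 ± 4.18 and Cyfip1 at 13.8 ± 1.92 CPM per kb. Celsr3, the gene of an atypical cadherin of neurons, had 23, 21 and 19 counts and was the gene below 1 CPM. All of these levels are descriptions of 1 condition.

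Among the neighbours of the clusters on chromosome 18, Cd14 had 215, 647 and 223 counts and Arap3 100, 284 and 121 counts in clones 1, 2 and 3. Both were highest in clone 2, in which the summed level of the macrophage markers was 1657 CPM against 346 and 285 CPM. Their relation to these markers was not tested. Zmat2, Taf7 and Hdac3 were not called as differing between clones. Of the 21 neighbours tested, 11 were called, compared with 62.2% of all genes tested.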
